A study of Mus musculus with 6 samples.

Results

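Prss2 and Cela1 encode digestive serine proteases of the exocrine pancreas, and both were read here in disome footprints from mouse liver. They are 2 of the 8941 genes listed in the series. The pair was selected on measured values: in earlier results from these libraries both had stood far higher at 1 time point than at the others. Their levels are therefore given as a description, and where a fit across all genes called them, nothing is read from the calls that use the ZT2 libraries. A disome footprint is a piece of messenger RNA shielded from nuclease by 2 ribosomes pressed against each other. Footprints came from livers of male C57BL/6JRj mice aged 11 to 12 weeks, an inbred strain with no genetic change or drug named in the labels. All mice lived under equal light and dark periods. Collection times are given as zeitgeber time (ZT), counted in hours from lights on, and were ZT0, ZT2 and ZT12. Each time point has 2 libraries, each a pool of livers from 2 mice.

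Prss2 encodes anionic trypsinogen, the inactive precursor of trypsin. Cela1 encodes a chymotrypsin-like elastase, which cuts elastin and other proteins after small side chains. Acinar cells of the pancreas make such precursors in large amounts and release them into the gut, where enteropeptidase activates trypsinogen and trypsin then activates other precursors. Hepatocytes are known as the main source of plasma inhibitors of these enzymes, such as alpha-1 antitrypsin, rather than of the enzymes themselves. Cela1 has also been studied outside the pancreas, for example in lung.

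In the mouse reference (GRCm38.p6), Prss2 spans chromosome 6 from 41521776 to 41525079, inside the T cell receptor beta locus. That locus also holds 10 other genes of the trypsin family list, making 11 of the 12 that the reference table contains. Tmprss15, which encodes enteropeptidase rather than a trypsin, is on that list but not among the genes in the locus. Prss1, another trypsinogen gene, is the nearest coding gene before Prss2. Trypsin genes resemble each other closely, and how reads that match several of them were assigned is not given in the sources used here. A value for Prss2 may therefore hold reads of its relatives. Cela1 spans chromosome 15 from 100674422 to 100687920, between Bin2 and Galnt6. The other elastase and chymotrypsin genes listed lie on other chromosomes.

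The 250 bases before each start site are printed because digestive enzyme genes of this kind are known targets of PTF1, the transcription factor complex of acinar cells. PTF1 recognises an E-box, searched here as CACCTG, next to a second element bound by its RBPJ or RBPJL subunit, searched here as TTTCCC. Capitals mark these letters and TATAAA, the letters searched for a TATA box, each on either strand. The sequences are from RefSeq (GRCm38.p6), for Prss2 from the plus strand at chr6:41521526-41521775 and for Cela1 from the minus strand at chr15:100687921-100688170.
Prss2: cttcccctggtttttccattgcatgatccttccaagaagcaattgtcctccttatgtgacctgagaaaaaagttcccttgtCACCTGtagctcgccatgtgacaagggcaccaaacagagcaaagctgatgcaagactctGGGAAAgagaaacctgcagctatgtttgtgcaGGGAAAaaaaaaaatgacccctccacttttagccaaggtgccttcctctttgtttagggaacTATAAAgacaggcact
Cela1: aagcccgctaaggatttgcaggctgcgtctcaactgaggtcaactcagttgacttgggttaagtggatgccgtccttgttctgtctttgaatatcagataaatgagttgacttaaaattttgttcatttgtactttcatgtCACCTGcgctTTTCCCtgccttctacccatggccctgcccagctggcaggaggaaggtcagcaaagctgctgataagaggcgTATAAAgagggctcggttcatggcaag
In Cela1, CACCTG begins 109 bases before the start and TTTCCC begins 99 bases before it, so both fall within 20 bases of each other. In Prss2, CACCTG begins 169 bases before the start, and TTTCCC occurs on the minus strand at 110 and at 78 bases before it. TATAAA begins 16 bases before the start in Prss2 and 27 bases before the start in Cela1, and use of either match was not tested. Of all 32851 promoter windows of this length, 17.2% hold CACCTG, 21.9% hold TTTCCC and 12.4% hold TATAAA. Both PTF1 letter groups within 20 bases of each other were found in 0.572% of windows, and Prss2 holds no such close pair. The letters were chosen after the sequences were seen, so this share does not measure how unusual the pair in Cela1 is.

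Counted with Prss2 itself, CACCTG was found for 8 of the 9 trypsin family genes with a window. Counted with Cela1 itself, it was found for 5 of the 6 elastases and chymotrypsins. TATAAA was found for 8 of the 9 trypsin family genes, and for Cela1 alone of the 6 elastases and chymotrypsins. Among wider lists, CACCTG was found for 25 of the 44 acinar genes and 7 of the 12 hepatocyte marker genes with a window, similar shares of windows (55.6% and 58.3%). TTTCCC was found for 5 of the 9 trypsin family genes, 4 of the 6 elastases and chymotrypsins, 13 of the 44 acinar genes and 1 of the 12 hepatocyte genes. The trypsin family list includes Tmprss15, which encodes enteropeptidase rather than a trypsin. Tmprss15 holds TTTCCC but neither CACCTG nor TATAAA. The close pair was found in 3 of the 44 acinar genes, namely Cela1, Prss1 and Reg3d. It was found in 2 of the 9 trypsin family genes (Gm5771 and Prss1) and in 0 of the 12 hepatocyte genes. With 0.572% of all windows holding the pair, 12 genes are too few for a count of 0 to differ from that share. Prss2 and Cela1 are themselves members of the family and acinar lists, and the letters were chosen after their sequences were seen. Nothing is therefore read from these counts about the pair. These are matches of letters only, and binding was not measured.

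The 2 ZT2 libraries stand apart from the others, and every high value below rests on them. They list 97 and 250 genes at 0, against 4 in each ZT0 library and in 1 ZT12 library, and 52 in the other. Replicates correlated at r = 0.948 across tested genes at ZT2, against 0.989 at ZT0 and 0.976 at ZT12. Whole reads recovered from the RPKM steps totalled 6346387 to 12322651 per library. RPKM here means reads per kilobase of coding sequence on a scale common to the libraries. Neither total RNA nor single-ribosome footprints were analysed here, so a disome level does not separate messenger RNA amount, translation and ribosome queueing. In such bulk tissue, fewer cells of a type and less RNA per cell cannot be told apart.

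Prss2 was read in quantity only in the ZT2 libraries. ENSMUSG00000057163 (Prss2) was listed at 0 RPKM in both ZT0 libraries. At ZT2 it had 110.6 RPKM from 504 reads in replicate 1 and 229.7 RPKM from 1307 reads in replicate 2. At ZT12 it was listed at 0 in replicate 1 and had 1.32 RPKM from 12 reads in replicate 2. The ZT2 libraries were thus high, the other 4 were at or near 0, and the groups did not overlap. Of all 8941 listed genes, 10.7% also had both ZT2 libraries above every other library.

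Per 1000000 recovered reads of a library (RPM), Prss2 made up 79.4 RPM in ZT2 replicate 1 (95% exact Clopper-Pearson interval 72.6 to 86.7) and 166.6 RPM in replicate 2 (157.7 to 175.9). These intervals, and the limits given for a count of 0, hold counting error alone and take each read as independent. Reads copied from 1 fragment are not independent molecules, so the true counting error may be larger. The intervals of the ZT2 replicates do not meet, so Prss2 differed between these 2 pools by more than the counting error of independent reads. A count of 0 in a ZT0 library allows up to 0.417 and 0.384 RPM in replicates 1 and 2, and in ZT12 replicate 1 up to 0.243. In ZT12 replicate 2 the count of 12 made 1.01 RPM (0.521 to 1.76).

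Mean Prss2 was 170.2 RPKM ± 84.2 (SD, n = 2) at ZT2. Set against a limit of 3 reads over both ZT0 libraries together, which is 0.275 RPKM, this mean was 618-fold higher. The limit covers counting at ZT0 only, so this fold does not hold the spread between the ZT2 libraries. Against the ZT12 mean of 0.659 RPKM ± 0.931 (SD, n = 2) the ZT2 mean was 258-fold higher. By level, Prss2 ranked 927th and 520th of the 8941 genes in the ZT2 libraries, so it was well read there but not among the most abundant genes.

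Cela1 differed from Prss2 in that it was read in every library. ENSMUSG00000023031 (Cela1) had 5.51 RPKM from 31 reads and 8.29 RPKM from 51 reads at ZT0. At ZT2 it had 66.8 RPKM from 329 reads in replicate 1 and 93.6 RPKM from 576 reads in replicate 2. At ZT12 it had 8.71 RPKM from 91 reads and 6.60 RPKM from 65 reads. The ZT0 and ZT12 libraries overlapped, and both ZT2 libraries lay above all 4 of them.

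**Figure D1:**
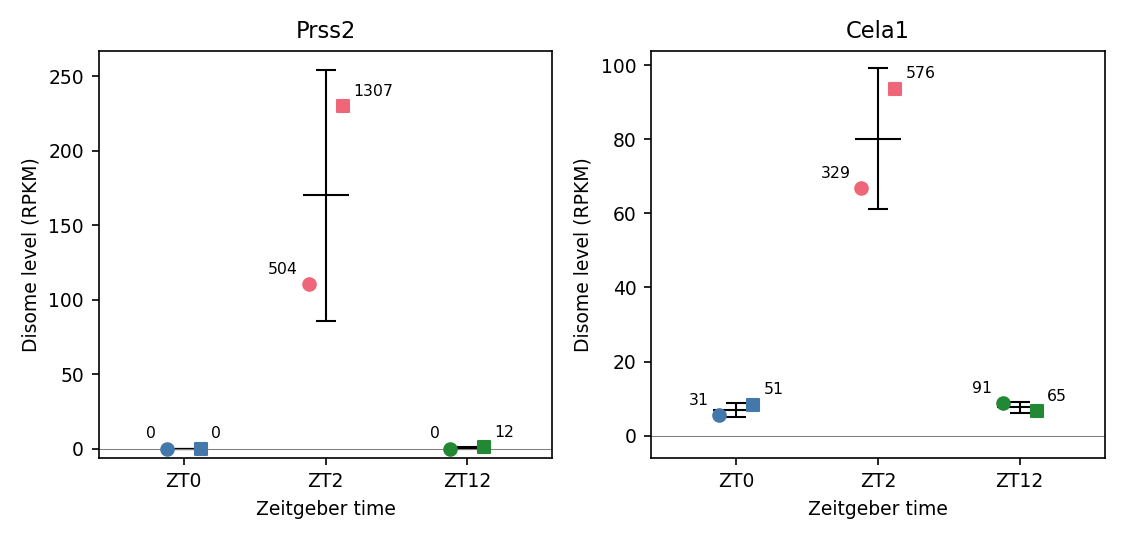
Disome level in RPKM of Prss2 (left) and Cela1 (right) by zeitgeber time, with circles for replicate 1, squares for replicate 2, the mean as a bar with SD, and recovered reads beside each point. Prss2 is at 0 to 1.32 RPKM outside ZT2 and Cela1 at 5.51 to 8.71 RPKM, while both are highest in ZT2 replicate 2.

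The mean level of Cela1 was 6.90 RPKM ± 1.96 at ZT0, 80.2 RPKM ± 19.0 at ZT2 and 7.65 RPKM ± 1.49 at ZT12 (SD, n = 2 each). The ZT2 mean was 11.6-fold the ZT0 mean and 10.5-fold the ZT12 mean. The ZT2 libraries held 51.8 RPM of Cela1 (exact Clopper-Pearson 46.4 to 57.8) and 73.4 RPM (67.5 to 79.7). These intervals do not meet either, again with each read taken as independent. At ZT0 and ZT12 the value ran from 4.31 to 7.38 RPM. Outside ZT2, Cela1 lay near the middle of its library, with 43.4% to 53.4% of genes below it. At ZT2 it lay above 85.2% and 88.5% of genes.

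Both proteases were higher in ZT2 replicate 2 than in replicate 1, but not by the same factor. Prss2 was 2.08 times and Cela1 1.40 times higher in replicate 2. On the log2(RPKM + 1) scale, 13.0% of the 8355 tested genes differed more between the ZT2 libraries than Prss2 did, and 42.5% differed more than Cela1 did. The level of Prss2 over that of Cela1, both per length, was 1.66 in ZT2 replicate 1 and 2.45 in replicate 2. It was 0.200 in ZT12 replicate 2 and 0 in the other 3 libraries. Prss2 was thus the higher of the pair at ZT2 and the lower at the other times.

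**Figure D2:**
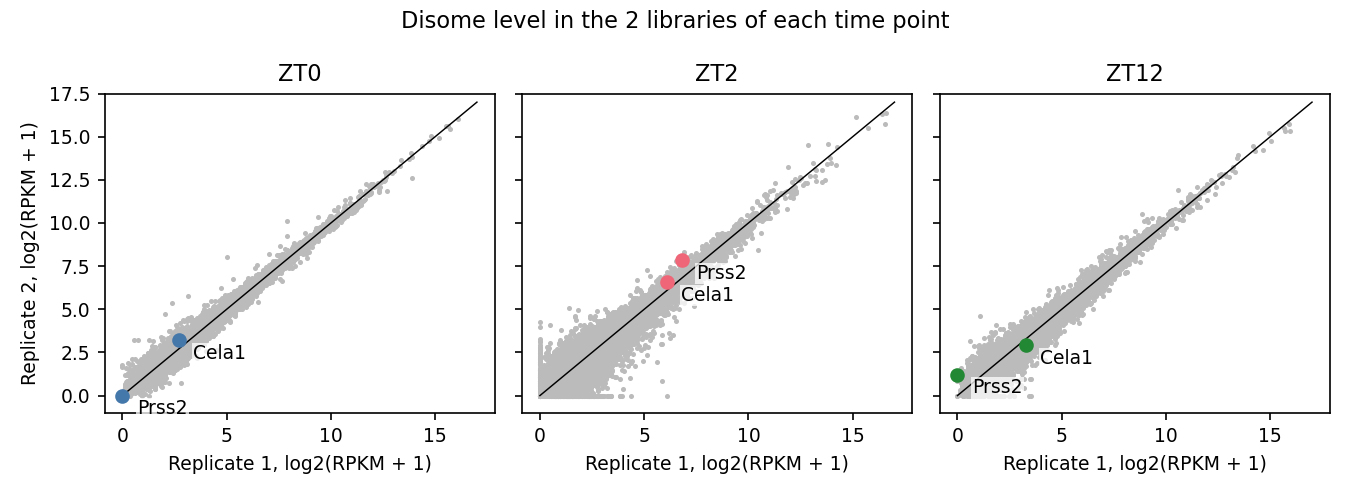
Log2(RPKM + 1) of each listed gene in replicate 1 (x) against replicate 2 (y) at ZT0, ZT2 and ZT12, in grey, with Prss2 and Cela1 in colour and a line of equality. At ZT2 both proteases lie above the line by 2.08 and 1.40 times in RPKM, and the cloud of genes is wider than at ZT0 (r = 0.948 against 0.989).

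Recovered coding lengths were 738 nucleotides for Prss2 and 798 for Cela1, or 246 and 266 whole codons. To place these levels among genes of like length, both were set beside the 563 listed genes of 700 to 850 nucleotides, whose median was 15.3 to 17.2 RPKM in the 6 libraries. Within these 563 genes, Prss2 ranked 84th and 48th from the top at ZT2, and Cela1 ranked 124th and 93rd. At ZT0, Cela1 ranked 413th and 381st. At ZT12 its ranks were 361 and 404. Both genes were thus above the median of genes of like length at ZT2, while Cela1 lay below their median at the other times.

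The series compares time points, and the same limma fit over all 6 libraries set the background for the pair. For ZT2 against ZT0 it called 2 of 8355 tested genes (0.0239%), and these were Prss2 and Cela1. Since that contrast chose them, nothing is read from the count. ZT12 against ZT2 uses the same ZT2 libraries. There the fit called 2.06% of genes, with both proteases (2 of 2) among those lower at ZT12. The high ZT2 values that chose the pair enter this contrast too, so nothing is read from that count either. For ZT12 against ZT0 it called 0.946% of genes and 0 of these 2. At an unadjusted p of 0.05 in that fit, 1210 of the 8355 genes passed and 0 of these 2. With limma's voom on recovered reads, 283 of the 8355 genes were called and 0 of these 2. Prss2 entered this contrast through its ZT2 values, since its ZT0 and ZT12 means lie below the filter of 1 RPKM. The fit also takes its spread from all 6 libraries, so nothing is read from the absence of calls. Without ZT12 replicate 1, Prss2 passed the unadjusted but not the adjusted threshold in that contrast. The log2 change of Cela1 from ZT0 to ZT12 was 0.14, and its libraries overlapped. For ZT2 against ZT0, voom called 1 of the 2, Cela1. In that contrast limma called neither protease without either ZT0 library, and Prss2 but not Cela1 without ZT2 replicate 2 or without either ZT12 library. For ZT12 against ZT2, Cela1 lost its call without ZT12 replicate 2. The number of genes called moved with the library left out. For ZT2 against ZT0 limma called 0 without either ZT0 library (516 and 425 at an unadjusted p of 0.05), 1 without either ZT12 library and 248 without ZT2 replicate 1. ZT12 against ZT0 gave 5 and 3 without ZT0 replicates 1 and 2, 8 and 5 without the ZT12 replicates, and 283 and 282 without the ZT2 replicates. ZT12 against ZT2 gave 39 without either ZT0 library, 46 and 5 without ZT12 replicates 1 and 2, and 597 and 393 without ZT2 replicates 1 and 2.

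Few listed genes were set apart at ZT2 in this way. Both ZT2 libraries lay above every other library for 10.7% of the 8941 genes, but at least 4 times above for 2 genes (0.0224%), again Prss2 and Cela1. The pair was chosen on high ZT2 values, and the mark of 4 times was set with earlier results known. Nothing is therefore read from which genes passed it. The lower ZT2 library was 84.0 times the highest other library for Prss2 and 7.67 times for Cela1. Just below that mark, the next gene stood 3.10 times above, at 6.02 and 5.44 RPKM. At least 2 times above were 14 genes and at least 1.5 times above were 83. The list itself may hide other such genes. Prss2 is the only listed gene at 0 in both ZT0 libraries and the only one at 0 in 3 libraries, whereas 8560 genes have reads in all 6. The rule by which genes entered the list is not given in the sources used here, and genes it left out are not analysed here.

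**Figure D3:**
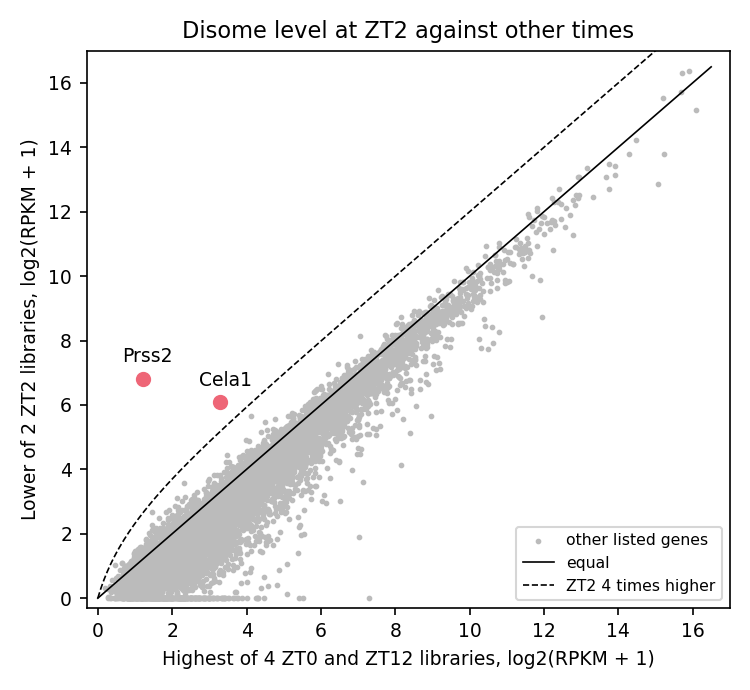
For each of the 8941 listed genes, the lower of the 2 ZT2 libraries (y) against the highest of the 4 ZT0 and ZT12 libraries (x), both as log2(RPKM + 1), with a solid line at equality and a dashed line where ZT2 is 4 times higher. Prss2 and Cela1 are the 2 genes above the dashed line, at 84.0 and 7.67 times.

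Likeness of pattern was measured as Pearson's r of log2(RPKM + 1) over the 6 libraries, among the 3732 tested genes that spanned at least 2-fold on this scale. With 2 high and 4 low libraries, such an r mainly says that a gene was higher at ZT2, and it ignores by how much. Cela1 was the gene most like Prss2, at r = 0.981, and Prss2 was the third most like Cela1, which follows in part from how the pair was chosen. Besides the pair itself, ENSMUSG00000042608 came closest to Prss2 (r = 0.978), with a mean of 1.97 RPKM at ZT0, 6.37 at ZT2 and 2.42 at ZT12. Closest of all to Cela1 was ENSMUSG00000029270 (r = 0.983), with 2.75, 6.43 and 2.50 RPKM. The files pair no symbols with identifiers, so these genes are not named.

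The other genes of like pattern moved far less than the proteases, which follows in part from choosing the pair on its high ZT2 values. The 5 genes most like each protease comprised 7 others, and their ZT2 mean was 1.72 to 3.48 times their ZT0 mean. Cela1 stood at 11.6 times its ZT0 mean, and the ZT2 mean of Prss2 at 618 times the 3-read limit for ZT0. These 7 had 5.73 to 57.0 RPKM at ZT2, below both proteases, and 16 to 271 reads in any library. Between the 2 ZT2 libraries themselves, 1199 tested genes differed by more than 2-fold on the log2(RPKM + 1) scale.

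**Figure D4:**
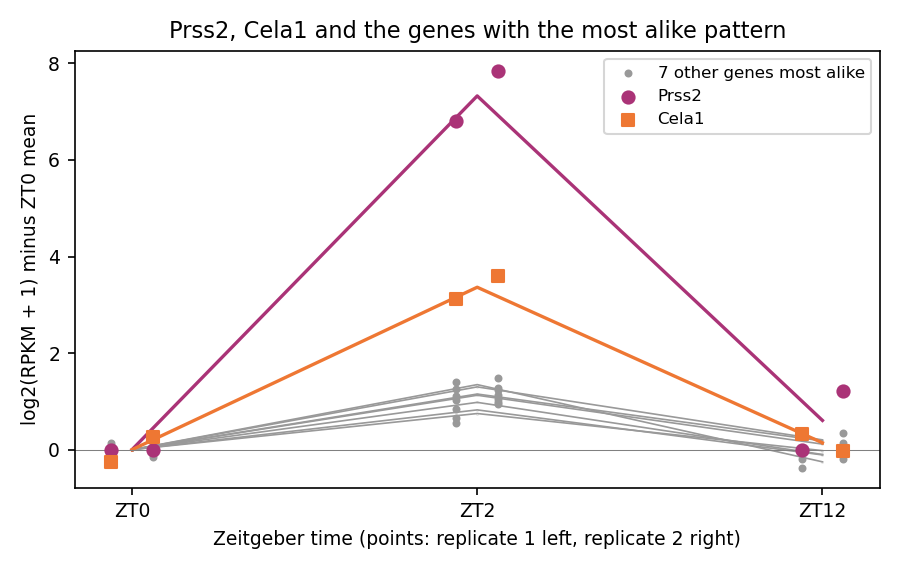
Log2(RPKM + 1) minus the ZT0 mean for Prss2, Cela1 and the 7 other genes whose pattern over the 6 libraries was most alike, with a point per library and lines through the means at each time. Prss2 reaches 6.80 and 7.85 at ZT2 while the 7 others stay far below Cela1, at 1.72 to 3.48 times their ZT0 mean in RPKM.

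The identifiers of the other pancreatic genes are not paired with symbols in the tables used here, so trypsinogen relatives, other elastases, lipases, amylases and carboxypeptidases could not be looked up. Markers of islets, ducts, intestine, spleen, fat and hepatocytes were not looked up either, and the labelled tissue was not checked against its markers for the same reason. Whether the reads at ZT2 came from pancreas taken along with the liver, or from cells of the liver, was not tested. The values that bear on the question are those above. Both ZT2 pools held both genes at high levels, the ratio between the genes differed between these pools, and Cela1 had 4.31 to 7.38 RPM in the 4 other libraries, in 3 of which Prss2 had 0 reads. Since the high values lie in both ZT2 pools, time of day and whatever else these 2 pools share cannot be told apart.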

How the data were processed

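The authors deposited 6 tables, 1 per library, with an Ensembl identifier and a value in RPKM; that unit comes from the file names. Tools named in the submitters' processing notes include STAR, Bowtie2 2.3.0, cutadapt, CASAVA 1.82, edgeR and StringTie, and the builds are mm10 and GRCm38.p2, with roles not given in the sources used here. Whole reads were recovered from the steps in the authors' RPKM (100.0% of genes, relative tolerance 5e-13) and used for depth, intervals and voom. For 95.2% of genes the length was a multiple of 3, as coding lengths are. The authors' scaling between libraries was kept, and its basis is not given in the sources used here. Recovery and the fit were tested on simulated data. Genes averaging 1 RPKM or more were tested on log2(RPKM + 1) with limma 3.58.1 (R 4.3.3), with all 6 libraries in 1 fit, a variance trend and Benjamini-Hochberg adjustment at 0.05. Libraries of a time point were treated as separate pools of 2 mice, so p-values rest on a spread between pools estimated over all 6 libraries. That spread is not specific to a time point, although the ZT2 pools differed more. There 1199 tested genes differed over 2-fold on the log2(RPKM + 1) scale, against 120 at ZT0.

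The pair, the gene lists and the rule for named genes (the pair, list members with calls, the 5 genes most alike in pattern, and genes 4 times higher at ZT2) were chosen with earlier results of these data known, and the promoter motifs after the sequences were seen. The names Prss2 and Cela1 came with the identifiers when the pair was set. None of the 8941 identifiers is in the reference table (0 matched), so the gene lists were not tested on RPKM and served only for positions and promoters.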

Additional observations from a re-analysis of the deposited data

How the results depend on the processing

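For Prss2 the log2 change from ZT0 to ZT2 was 7.33, and it was 10.64 with a pseudocount of 0.1 and 5.04 with 5. Its change from ZT2 to ZT12 was -6.72, against -8.73 and -4.87 with these pseudocounts. For Cela1 the changes were 3.36 and -3.22, and 2.83 and -2.74 with a pseudocount of 5. Without 1 library at a time the values were 6.80 to 7.85 and -7.33 to -6.11 for Prss2, and 3.11 to 3.62 and -3.46 to -2.98 for Cela1. Equal summed RPKM and quantile normalization moved these 4 changes by less than 1 SD of the replicates. The direction held for all 4 in the settings named here.

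Genes called by limma for ZT2 against ZT0, ZT12 against ZT0 and ZT12 against ZT2 numbered 2, 79 and 172. They became 1, 32 and 80 without the variance trend, 9, 283 and 366 with voom on recovered reads, and 1, 282 and 39 with only the 4 libraries compared. A pseudocount of 0.1 gave 6 for the first and a filter at 5 RPKM gave 124 for the second. Leaving out each library gave 0 to 248, 3 to 283 and 5 to 597, with a lone library assumed to vary like the others. For ZT2 against ZT0, Prss2 was not called with a pseudocount of 0.1 or with voom, and Cela1 was not called without the variance trend or with only the 4 libraries compared. With the replicate number as a block (replicate block) the counts were 2, 51 and 113. The numbers showed no pairing, with correlations of -0.076, -0.019 and 0.018 between deviations of libraries that share one. The cause was not tested. Depth limits Prss2 to the bound given by 3 reads in the ZT0 libraries and ZT12 replicate 1, which held 0 reads; the 12 reads of ZT12 replicate 2 give a measured value with a wide interval.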
